A study of Homo sapiens with 6 samples.

Results

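The genes described here are cyclins, cyclin-dependent kinases (CDKs), CDK inhibitors, E2F transcription factors and the numbered CDC genes. They were taken by symbol from the platform annotation: CCN followed by a letter from A to L and a digit or nothing, CDK, E2F, or CDC followed by a digit. CCNB1, CDK1 and the CDC42 genes were left out. This gave 57 genes, of which 56 had values on at least 2 of 3 arrays of each siRNA, among 8797 features tested (genes, or single probes without a symbol). CDK5R1, an activator of CDK5, was the gene that missed this limit. Its 1 probe read -0.34, 0.50 and 0.68 on the p65 siRNA arrays and 1.02 on the RPS3 siRNA array at 1 h, and was blank on the other two. Just inside the limit were CDK13 and CDKAL1, blank on the p65 siRNA array at 6 h, and CDK14, blank on the RPS3 siRNA array at 1 h. The other 53 had a value on all 6 arrays.

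Jurkat cells, an established line from a human T-cell leukaemia, supplied the RNA for 2 groups of 3 two-colour arrays. The cells of the first group had been given siRNA against p65, which RELA encodes and which is a subunit of the transcription factor NF-kB. Those of the second had siRNA against RPS3, a ribosomal protein. Cells of both groups were then stimulated with anti-CD3/CD28 (1 ug per the labels) for 1, 3 or 6 h, with 1 array for each siRNA and time. On every array the other channel held RNA from cells given nonspecific siRNA and the same stimulation for the same time. All arrays held stimulated cells and ran in the same dye orientation, and none set control against control. Every value below is a log2 ratio of siRNA over control siRNA. That direction is likely, from the dyes in the labels, but the table itself does not state it. Log base 2 is also a reading of the values; a natural log was possible, and every size would then be larger on the log2 scale. Means are given ± SD over the 3 times of a siRNA (n = 3 unless stated).

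Cyclins are the regulatory partners of CDKs, and their rise and fall drives a cell through its division cycle. D-type cyclins with CDK4 or CDK6, followed by cyclin E with CDK2, phosphorylate the retinoblastoma protein in G1, which releases E2F factors to switch on genes for DNA replication. Cyclin A and B with CDK1, activated by CDC25 phosphatases, carry the cell through G2 into mitosis, and inhibitors such as p21 and p27 hold CDKs back. Another branch of both families, with members such as CDK7, CDK8 and CDK9, acts on RNA polymerase II rather than on the cycle. In resting T cells, stimulation of the T-cell receptor is known to induce D-type cyclins and to lower p27, whereas Jurkat cells divide without it.

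The arrays held 12946 to 14423 values each out of 15246 probes. At 3 h the log ratios had an SD of 0.255 with RPS3 siRNA, the lowest of the 6, and of 0.513 with p65 siRNA, the highest. With its own siRNA RPS3 measured -2.50, -2.53 and -1.44 at 1, 3 and 6 h, and with p65 siRNA 0.11, 0.01 and 1.11. RELA measured -0.41, -0.46 and -0.59 with p65 siRNA and -0.39, -0.69 and -0.54 with RPS3 siRNA, so these ranges overlapped. Ratios hold no level, so the labelled cell type cannot be checked against its markers here. Of 27 markers of other cell types 15 were tested, with a median of 0.36 for p65 siRNA at 3 h and medians between -0.06 and 0.18 for the other 5 arrays. Their part in the results was not tested. The experiment IDs in the labels form 2 runs of numbers, whose meaning is not stated. The p65 siRNA array at 1 h and the RPS3 siRNA array at 3 h are in the first run, and the other 4 arrays in the second, so only the 6 h arrays compare the siRNAs within a run. With the run as a covariate 0 members passed in any contrast.

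No member passed a Benjamini-Hochberg adjusted p under 0.05 in limma's moderated test. This held for each siRNA against control, for the difference between the siRNAs and for the slope over time, and 0 of all 8797 features passed in any of them (0% in each). Unadjusted, 445 features had a p under 0.05 with p65 siRNA, 678 with RPS3 siRNA, 207 in the difference and 1678 in the slope. Among the members, 1 was higher and 2 were lower with p65 siRNA at an unadjusted p under 0.05 (all features: 2.65% higher and 2.41% lower). That count of 3 was 0 without the p65 siRNA array at 1 h, 5 without the RPS3 siRNA array at 6 h and 7 without both 6 h arrays (all features: 6.01%, 5.73% and 9.53%). With RPS3 siRNA 2 members were higher and 3 lower (all features: 3.73% and 3.98%). In the difference 2 members were higher with RPS3 siRNA and 0 lower (all features: 1.1% and 1.25%). Against 56 members these counts are close to the background shares, so they say nothing particular about the family. The lowest adjusted p of a member was 0.919 with p65 siRNA (CDK13), 0.492 with RPS3 siRNA (CDK8), 1.00 in the difference (CDK8) and 0.189 for the slope (CDKN1A). Values below are therefore levels of single genes and lists with their spread.

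Among the genes of G1 and of entry into S phase, the values furthest above control came at 6 h, with either siRNA. Of 15 genes in this list 11 were tested. CDK6, a kinase of the D-type cyclins, read -0.54, -0.55 and 0.82 with p65 siRNA at 1, 3 and 6 h and -0.26, -0.23 and 0.78 with RPS3 siRNA. CDK4, its close relative, read 0.08, -0.05 and 0.53 with p65 siRNA and -0.01, 0.10 and 0.75 with RPS3 siRNA. CCNE1, the gene of cyclin E1, read 0.00, -0.05 and 0.48, and -0.04, 0.00 and 0.65. For these 3 genes both 6 h arrays lay above the 4 earlier arrays, and the siRNAs overlapped. This position at 6 h held for 15 of 53 members and 22.4% of all features. CCND3, the gene of cyclin D3, was of the same kind at -0.24, -0.09 and 0.42 with p65 siRNA and -0.44, -0.60 and 0.16 with RPS3 siRNA. CDC25A, the phosphatase that activates CDK2, read -0.50, 0.12 and -0.23 with p65 siRNA. With RPS3 siRNA it read -0.48, -0.17 and 0.68, so it was high on the RPS3 siRNA array at 6 h alone.

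The list holds 6 more genes. CCND1, the gene of cyclin D1, lay within -0.14 and 0.10 on all 6 arrays. CCND2 averaged -0.02 ± 0.10 with p65 siRNA and -0.19 ± 0.14 with RPS3 siRNA, where it was below 0 at each time. CDK2, the partner of cyclins E and A, averaged -0.08 ± 0.14 and -0.09 ± 0.15. Of the genes that act at replication origins, CDC6, which loads the helicase, read 0.17, -0.26 and 0.28 with p65 siRNA and -0.41, -0.17 and -0.11 with RPS3 siRNA. CDC7, the kinase that fires origins, read -0.01, -0.65 and -0.13, and -0.35, -0.16 and -0.24. Its 5 probes disagreed at 3 h with p65 siRNA, at -1.383, -1.125, -0.468, -0.268 and 0.007. E2F3, an activator E2F, averaged -0.04 ± 0.23 with p65 siRNA and -0.16 ± 0.09 with RPS3 siRNA. Unlike CDK4, CDK6 and CCNE1, it had both 6 h arrays below the 4 earlier arrays, as had 6 of 53 members and 19.1% of all features. CCND2, CDC6, CDC7 and E2F3 were thus below 0 at all 3 times with RPS3 siRNA, as were 12 of 55 members with 3 values there and 15% of all features. CDC6 rests on a probe with blanks for this: its 1 probe with a value on all arrays read 0.31 at 6 h with RPS3 siRNA. None of these means differed from 0 beyond limma's threshold (lowest adjusted p among the 11 genes 0.717 with RPS3 siRNA and 0.92 with p65 siRNA).

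**Figure D1:**
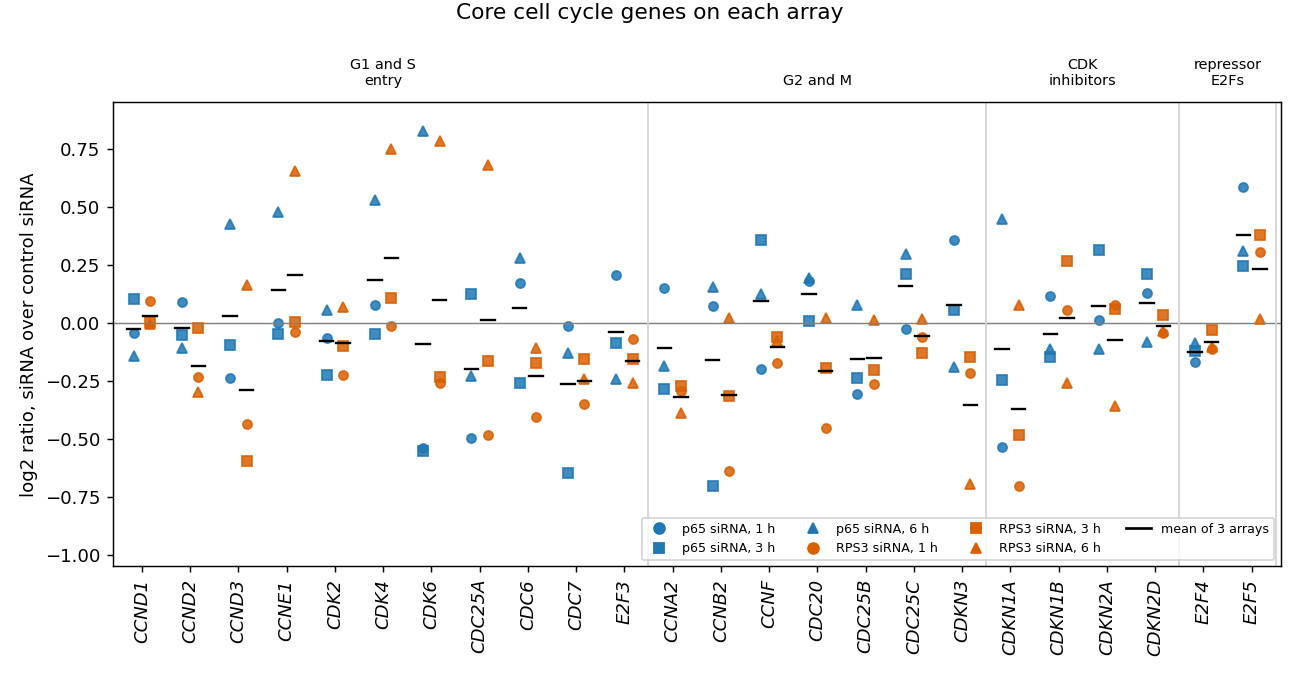
Log2 ratio of siRNA over control (vertical axis) of the 24 tested members in the lists G1 and S entry, G2 and M, CDK inhibitors and repressor E2Fs (horizontal axis). Each point is 1 array, blue for p65 siRNA and orange for RPS3 siRNA, with circles for 1 h, squares for 3 h and triangles for 6 h, and black bars are means of 3 arrays. The 6 h triangles of CDK4, CDK6 and CCNE1 stand above the other points, and all 7 G2 and M genes have a mean below 0 with RPS3 siRNA.

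Genes of G2 and mitosis averaged below control with RPS3 siRNA and near control with p65 siRNA. All 7 tested genes had a mean below 0 with RPS3 siRNA, against 45.9% of all features, and 3 of 7 did with p65 siRNA, against 44.2%. CCNA2, the gene of cyclin A2, read -0.30, -0.27 and -0.39 with RPS3 siRNA and 0.15, -0.29 and -0.19 with p65 siRNA. Its RPS3 siRNA mean of -0.32 ± 0.06 had the lowest p of the list (unadjusted p = 0.0314, adjusted p = 0.618 in limma), and the 3 h values of the siRNAs overlapped. CDKN3, a phosphatase that acts on CDKs, read -0.22, -0.15 and -0.69 with RPS3 siRNA and 0.36, 0.06 and -0.19 with p65 siRNA. CDC20, the activator of the anaphase-promoting complex, read -0.45, -0.20 and 0.02 with RPS3 siRNA and 0.18, 0.01 and 0.19 with p65 siRNA. CDKN3 and CDC20 were lower with RPS3 siRNA at each of the 3 times, as was CDC25C. This held for 8 of 53 members with 6 values and for 15.9% of all features, and the comparisons at 1 and 3 h cross the 2 runs of experiment IDs.

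The other genes of the list depended more on the array. CCNB2, the gene of cyclin B2, read -0.64, -0.32 and 0.02 with RPS3 siRNA and 0.07, -0.70 and 0.16 with p65 siRNA, so its lowest value came from the p65 siRNA array at 3 h. CCNF, a cyclin that serves as the substrate receptor of a ubiquitin ligase, averaged -0.10 ± 0.06 with RPS3 siRNA and 0.09 ± 0.28 with p65 siRNA. CDC25C, a phosphatase that activates CDK1, averaged -0.06 ± 0.07 with RPS3 siRNA and 0.16 ± 0.17 with p65 siRNA. Of its 3 probes 1 averaged higher with RPS3 siRNA, at 0.19 against 0.14. The others averaged lower, with differences of -0.49 and -0.22. CDC25B, a related phosphatase, averaged -0.15 ± 0.15 and -0.16 ± 0.20. The value with p65 siRNA comes from 1 of its 4 probes, which averaged -1.21 and was blank at 6 h. Its 3 complete probes together averaged -0.11 with RPS3 siRNA and 0.05 with p65 siRNA. CCNB1 and CDK1, which the symbol rule leaves out, had lower means with RPS3 siRNA than any of the 7. CCNB1, the gene of cyclin B1, read -0.51, -0.53 and -1.07 with RPS3 siRNA and 0.26, -0.01 and -0.34 with p65 siRNA. CDK1, its kinase, read -0.43, -0.35 and -0.94, and 0.31, 0.09 and -0.27. In RNA from a whole culture, fewer cells in a phase and less RNA per cell cannot be told apart. The probes of CCNA2 disagreed: on the RPS3 siRNA arrays they averaged -0.60, -0.48 and 0.12, whereas both probes of CDKN3 (-0.40 and -0.31) and of CDC20 (-0.22 and -0.20) were below 0.

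Promoter sequences are shown for members of this list because its genes are classically read out through CCAAT boxes and a downstream element called the CHR. RefSeq promoter windows (GRCh38.p14, 250 bases before to 50 after a start) were matched to 52 of 56 members, all but CCND1, CCND2, CDK2 and E2F5. The G1 and S entry shares below therefore leave out 3 of the 11 tested genes. Where a gene had several windows, as 17 members did, the one listed first was taken. The motifs searched on both strands were the CHR as TTTGAA, the CCAAT box as CCAAT, and an E2F site as any of 4 forms, of which the first was TTGGCGC. The second form was TTCGCGC, the third was TTCCCGC and the fourth was TTGCCGC. A kappaB-like pattern, after the element bound by NF-kB, was searched too. It allows any base right after its opening G letters and then needs a run of T before its closing C letters. It is not the classical kappaB consensus, which was not searched. Hits of different motifs in the members overlapped 0 times. Capitals mark every hit of these motifs, and each sequence is written 5′ to 3′ on the strand of its gene. The 4 windows below are of G2 and M genes (CCNB2 at chr15:59104896-59105195, plus strand; CDC20 at chr1:43358731-43359030, plus strand; CDKN3 at chr14:54396757-54397056, plus strand; CCNA2 at chr4:121823834-121824133, minus strand).
CCNB2: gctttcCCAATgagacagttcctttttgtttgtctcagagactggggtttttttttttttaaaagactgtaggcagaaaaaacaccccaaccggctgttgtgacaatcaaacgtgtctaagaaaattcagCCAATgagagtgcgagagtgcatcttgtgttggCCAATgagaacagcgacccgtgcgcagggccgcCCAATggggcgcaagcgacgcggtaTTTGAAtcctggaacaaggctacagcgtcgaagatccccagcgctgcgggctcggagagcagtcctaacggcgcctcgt
CDC20: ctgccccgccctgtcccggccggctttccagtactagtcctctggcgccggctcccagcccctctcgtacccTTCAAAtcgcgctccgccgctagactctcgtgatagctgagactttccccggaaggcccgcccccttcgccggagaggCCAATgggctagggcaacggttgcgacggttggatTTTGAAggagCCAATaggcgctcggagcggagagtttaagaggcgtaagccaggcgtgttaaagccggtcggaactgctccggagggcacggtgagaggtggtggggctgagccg
CDKN3: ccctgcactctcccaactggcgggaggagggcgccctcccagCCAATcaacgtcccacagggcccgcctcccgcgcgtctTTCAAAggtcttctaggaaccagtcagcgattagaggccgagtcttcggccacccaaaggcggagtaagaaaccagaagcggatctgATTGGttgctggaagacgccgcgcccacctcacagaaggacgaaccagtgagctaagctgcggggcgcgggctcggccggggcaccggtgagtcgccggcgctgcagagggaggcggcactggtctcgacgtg
CCNA2: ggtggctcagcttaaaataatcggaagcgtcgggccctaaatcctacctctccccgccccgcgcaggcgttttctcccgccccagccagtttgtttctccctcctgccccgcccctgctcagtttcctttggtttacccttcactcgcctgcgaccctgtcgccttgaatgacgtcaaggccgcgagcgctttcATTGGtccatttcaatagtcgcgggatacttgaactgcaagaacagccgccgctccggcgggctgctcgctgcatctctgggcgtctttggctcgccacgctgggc

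The CHR letters were found in 4 of 7 G2 and M windows (57.1%), in 1 of 8 G1 and S entry windows (12.5%) and in 15.4% of 27305 windows of all genes. CCAAT was found in 5 of 7 G2 and M windows (71.4%), 3 of 8 G1 and S entry windows (37.5%) and 35.7% of all. With positions counted from the start site and negative before it, the CHR of CCNB2 began at -29, after 4 CCAAT boxes. In CDC20 a CHR began at -65, and in CDKN3 the CHR letters lay on the opposite strand at -170. With every window of a gene counted, the G2 and M shares were 71.4% for the CHR and 100% for CCAAT, against 18.2% and 39.7% of all genes. A match describes the letters of the window and is neither a bound site nor a cause. Other forms of the CHR were not searched, so the lack of a hit, as in CCNA2, does not show that the element is absent.

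The E2F letters were found in 4 of 8 G1 and S entry windows (CDC25A, CDC6, CDC7 and E2F3) and in 2 of 7 G2 and M windows (28.6%). They were found in 14 of 52 members (26.9%) and in 13.1% of all windows. CDC6 carries 1 of them at 8, just after its start site, beside 3 CCAAT boxes, in the window chr17:40287629-40287928 on the plus strand. The kappaB-like pattern was found in 1 of 52 members (1.92%), against 1.92% of all windows. These shares do not describe the classical kappaB consensus. That member was CDC27, a subunit of the anaphase-promoting complex, with 2 copies, at -98 and -78, in the window chr17:47189246-47189545 on the minus strand. CDC6 is shown as an example of an E2F window and CDC27 as the window with the kappaB-like pattern.
CDC6: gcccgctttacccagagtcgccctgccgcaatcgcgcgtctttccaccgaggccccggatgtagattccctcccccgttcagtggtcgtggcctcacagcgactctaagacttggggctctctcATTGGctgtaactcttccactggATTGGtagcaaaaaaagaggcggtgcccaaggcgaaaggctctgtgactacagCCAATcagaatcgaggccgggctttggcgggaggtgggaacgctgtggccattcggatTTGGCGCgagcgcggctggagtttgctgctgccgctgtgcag
CDC27: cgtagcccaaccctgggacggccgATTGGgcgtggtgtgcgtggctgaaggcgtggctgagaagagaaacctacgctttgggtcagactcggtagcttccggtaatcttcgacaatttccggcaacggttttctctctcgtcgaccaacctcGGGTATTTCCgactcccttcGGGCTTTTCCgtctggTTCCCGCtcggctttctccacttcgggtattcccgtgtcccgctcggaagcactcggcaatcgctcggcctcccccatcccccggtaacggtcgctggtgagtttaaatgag

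CDC27 read -0.30, -0.70 and 0.08 with p65 siRNA and -0.50, -0.02 and 0.17 with RPS3 siRNA. It was low at 1 h with either siRNA, and the groups overlapped. CDC16, another subunit of the same complex, averaged -0.07 ± 0.25 with p65 siRNA and 0.06 ± 0.07 with RPS3 siRNA.

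Set side by side, the lists parted by siRNA in opposite order. The median of the G1 and S entry list was -0.01, -0.09 and 0.06 with p65 siRNA at 1, 3 and 6 h and -0.23, -0.16 and 0.07 with RPS3 siRNA. The median of the G2 and M list was 0.07, 0.01 and 0.12 with p65 siRNA and -0.26, -0.20 and 0.01 with RPS3 siRNA. The G1 median lay below the G2 median on every p65 siRNA array, by 0.083, 0.095 and 0.069, and above it on every RPS3 siRNA array, by 0.030, 0.038 and 0.056. These gaps are small beside the spread of single genes, and they carry no test because the lists were chosen with results known. Both lists were at or near control at 6 h with RPS3 siRNA and lowest at 1 h. At that time 10 of 11 G1 and S entry genes and 7 of 7 G2 and M genes lay below 0, against 5 of 11 and 3 of 7 at 6 h. Of all features with a value 49.1% lay below 0 at 1 h and 49.9% at 6 h, and of the members 39 of 55 and 22 of 56. In the difference between the siRNAs, 6 of 7 G2 and M genes were lower with RPS3 siRNA (median -0.21; 7 of 7 from complete probes alone), and 5 of 11 G1 and S entry genes (median 0.01), against 50.6% of all features (median -0.0028). All 7 G2 and M means were also below 0 with RPS3 siRNA without any 1 of its arrays, though the list's median moved from -0.21 to -0.10 without the 1 h array. The G1 and S entry difference depended on single arrays, with 9 of 11 genes lower with RPS3 siRNA without the p65 siRNA 3 h array (median -0.08) or without the RPS3 siRNA 6 h array (median -0.12). It also turned sign under quantile normalization (median -0.05).

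**Figure D2:**
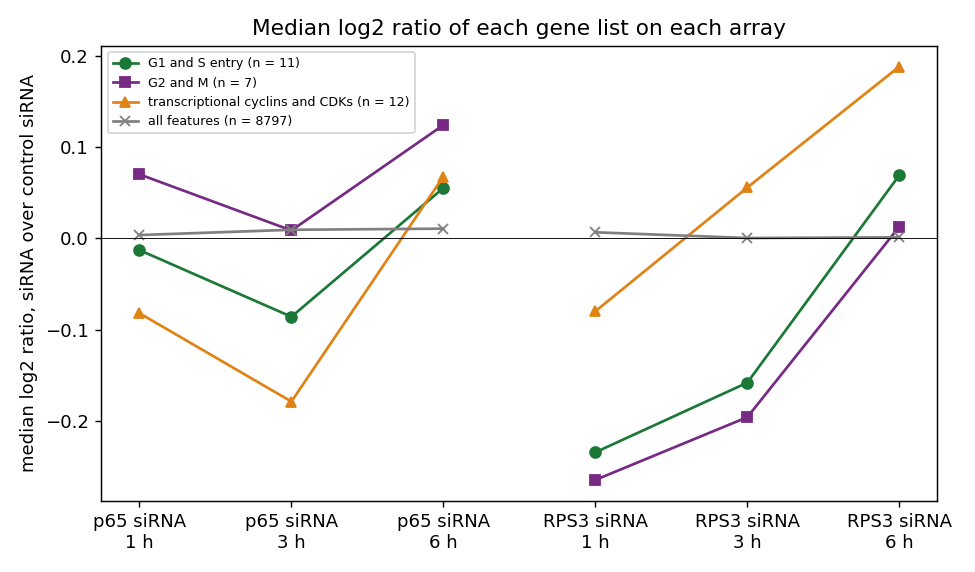
Median log2 ratio of siRNA over control (vertical axis) on each of the 6 arrays (horizontal axis) for 3 lists and for all 8797 features, with lines joining the 3 times of a siRNA. With RPS3 siRNA the G1 and S entry and G2 and M medians start at -0.23 and -0.26 at 1 h and reach 0.07 and 0.01 at 6 h, and the G2 and M line lies above the G1 and S entry line with p65 siRNA and below it with RPS3 siRNA.

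CDK inhibitors were tested for 4 of 7 genes. CDKN1A, which encodes p21, read -0.54, -0.25 and 0.45 with p65 siRNA and -0.70, -0.48 and 0.07 with RPS3 siRNA. It was below control at 1 and 3 h and above it at 6 h with either siRNA, and lower with RPS3 siRNA at each time. CDKN1B, which encodes p27, stayed between -0.26 and 0.27 on all 6 arrays. CDKN2A, the locus of p16 and ARF, read 0.01, 0.31 and -0.11, and 0.08, 0.06 and -0.36. Only 2 of its 4 probes had a value on all 6 arrays, and at 1 h with RPS3 siRNA these read 0.36 and -0.12. The ratios do not show whether CDKN2A was expressed. CDKN2D, which encodes p19, averaged 0.08 ± 0.15 with p65 siRNA and -0.02 ± 0.04 with RPS3 siRNA. The E2Fs that act mainly as repressors differed from each other. E2F4 was slightly low on all 6 arrays, between -0.17 and -0.03. E2F5 was above 0 on all 6, with 0.59, 0.24 and 0.31 on the p65 siRNA arrays and 0.30, 0.38 and 0.02 on the RPS3 siRNA arrays. Its mean with p65 siRNA, 0.38 ± 0.18, had an unadjusted p of 0.0185 and an adjusted p of 0.92 in limma. E2F5 was 1 of 3 members above 0 on all 3 p65 siRNA arrays, with CDC20 and CDC123, of 54 with values there, against 13.4% of all features.

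The transcriptional cyclins and CDKs had, gene by gene, higher means with RPS3 siRNA than with p65 siRNA. All 12 tested genes had a higher mean with RPS3 siRNA, against 4343 of all 8797 features, and their median difference was 0.16. At single times the list was not uniform. CCNC, CCNH, CCNL1, CDK7 and CDK10 were lower with RPS3 siRNA at 1 h, and CDK10 and CDK19 were lower at 3 h. The siRNA means of the list had medians of -0.05 with p65 siRNA and 0.11 with RPS3 siRNA. Both rested on single arrays: the first was 0.007 without the p65 siRNA array at 3 h, and the second 0.018 without the RPS3 siRNA array at 6 h. Without 1 array at a time, 8 of 11 to 11 of 12 genes were higher and the median difference ran from 0.09 to 0.21. CCNC, CCNL1 and CDK7 were not higher without the p65 siRNA array at 3 h, the array on which 10 of 12 lay below 0 and markers of other cell types had a median of 0.36. The part of that array's markers in the result was not tested. CDK8, the kinase of the Mediator complex, stood out within the list at 0.61, 0.36 and 0.48 with RPS3 siRNA and 0.11, -0.14 and 0.08 with p65 siRNA. Every RPS3 siRNA value was above every p65 siRNA value, which held for 3 of 53 members and 3.11% of all features. CDK8 was also 1 of 6 members above 0 on all 3 RPS3 siRNA arrays, of 55 with values there, against 16.2% of all features. Its mean with RPS3 siRNA was 0.48 ± 0.13 (unadjusted p = 0.0031, adjusted p = 0.492 in limma) and its difference was 0.47 (unadjusted p = 0.021, adjusted p = 1.00). Its 2 probes averaged 0.41 and 0.55 with RPS3 siRNA, and 0.01 and 0.02 with p65 siRNA.

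The partners of CDK8 did not share its values. CCNC, its cyclin, averaged -0.10 ± 0.36 with p65 siRNA and -0.03 ± 0.18 with RPS3 siRNA, and CDK19, its paralogue, read -0.48, 0.67 and 0.12, and 0.72, -0.14 and 0.20. CDK9, the kinase of the elongation factor P-TEFb, averaged -0.06 ± 0.05 with p65 siRNA and 0.11 ± 0.21 with RPS3 siRNA. CDK7 and CCNH, which form the CDK-activating kinase, averaged -0.01 ± 0.21 and -0.04 ± 0.19 with p65 siRNA and 0.06 ± 0.16 and 0.12 ± 0.14 with RPS3 siRNA. CDK12, a kinase of transcript elongation, was higher with RPS3 siRNA at each time, as were CDK9, CDK11A and CCNK, the cyclin of CDK12. This held for 8 of 53 members and 12.9% of all features. For CCNK it did not hold from complete probes alone. CDK11A has a near-identical copy, CDK11B, and its 6 probes cannot be assigned to one of them. CDK13, a relative of CDK12, had the lowest mean of all members, -0.85 at 1 h and -1.73 at 3 h with p65 siRNA (n = 2, blank at 6 h). With RPS3 siRNA it read -0.68, -0.62 and 0.14. The mean with p65 siRNA was -1.29 ± 0.62 (unadjusted p = 0.0029, adjusted p = 0.919 in limma) and rests on 1 probe. CDK10 and CCNL1 averaged 0.12 ± 0.45 and -0.01 ± 0.20 with RPS3 siRNA.

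Of the members outside these lists, CCNG2, a gene of a cyclin linked to withdrawal from the cycle, read -0.42, -0.25 and -0.61 with RPS3 siRNA and -0.11, 0.19 and -0.20 with p65 siRNA. It was the 1 member of 53 whose RPS3 siRNA values all lay below its p65 siRNA values, against 4.82% of all features. Its mean was -0.43 ± 0.18 (unadjusted p = 0.0112, adjusted p = 0.52 in limma). All 3 of its probes averaged below 0 with RPS3 siRNA. From its 2 complete probes the siRNAs overlapped (-0.02 at 3 h with RPS3 siRNA), and the difference was -0.20 rather than -0.39. CDK18, a CDK of the PCTAIRE type, read -0.27, -0.88 and -0.61 with RPS3 siRNA and -0.51, 0.05 and 0.44 with p65 siRNA (unadjusted p = 0.0175, adjusted p = 0.583 for RPS3 siRNA in limma). CDC123, an assembly factor of the translation initiation factor eIF2, was above 0 on all 6 arrays and highest at 6 h, with 0.32, 0.34 and 0.99 with RPS3 siRNA and 0.38, 0.01 and 0.69 with p65 siRNA. Without the RPS3 siRNA array at 6 h its RPS3 siRNA mean was 0.33, against 0.55 with all 3 arrays. CDC20B, a relative of CDC20, read -0.50, -0.36 and -0.28 with p65 siRNA and -0.27, -0.24 and 0.16 with RPS3 siRNA. It was 1 of 5 members below 0 on all 3 p65 siRNA arrays, of 54 with values there, against 9.39% of all features. Its 2 probes averaged -0.12 and -0.64 with p65 siRNA, but neither was below 0 on all 3 of these arrays. The first read -0.23, 0.59 and -0.72 there, and the second -0.77, -1.31 and 0.17. Their differences between the siRNAs had opposite signs (-0.16 and 0.69). CDC14B, a phosphatase of mitotic exit, also lay above all its p65 siRNA values on the RPS3 siRNA arrays, at 0.43, 0.10 and 0.21 against 0.03, -0.07 and 0.00. This held only for the average of its 2 probes. For each probe alone the siRNAs overlapped, with mean differences of 0.32 and 0.20. The 6 h arrays minus the earlier arrays gave 0.49 for the first probe and -0.52 for the second.

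**Figure D3:**
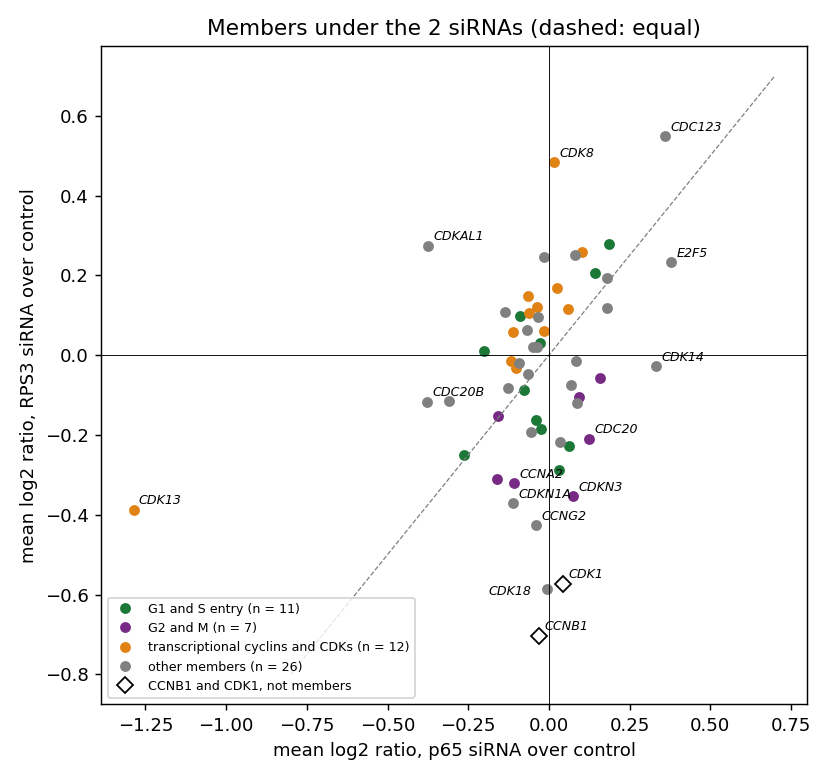
Mean log2 ratio over control with p65 siRNA (horizontal axis) against that with RPS3 siRNA (vertical axis) for the 56 members, coloured by list, with open diamonds for CCNB1 and CDK1 and a dashed line of equal values. The 12 transcriptional cyclins and CDKs lie above the line and 6 of 7 G2 and M genes below it, CDK8 stands high at 0.48 with RPS3 siRNA, and CDK13 lies far left at -1.29 (2 arrays).

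CCNI, which had the most probes (9), averaged 0.18 ± 0.23 with p65 siRNA and 0.19 ± 0.29 with RPS3 siRNA. CCNA1, the cyclin A of the germ line, read -0.08, 0.78 and -0.44 with p65 siRNA and -0.13, 0.03 and -0.26 with RPS3 siRNA. CDK14 was likewise highest on the p65 siRNA array at 3 h (0.98), the array on which markers of other cell types were high. That value comes from 1 of its 2 probes, the other being blank there. At 3 h with RPS3 siRNA the probes read -0.496 and 0.405. CCNG1, a known p53 target, read 0.57, 0.09 and -0.12 with p65 siRNA and 0.05, 0.41 and -0.11 with RPS3 siRNA, with both 6 h values below the rest. CDKAL1, a tRNA-modifying enzyme that shares only the letters of its symbol with the kinases, read -0.35 and -0.40 with p65 siRNA (n = 2) and -0.18, 0.03 and 0.98 with RPS3 siRNA. The means of CDC37, CDK3, CDK5R2, CDK17, CDKL1, CDKL3, CDK2AP1 and CDKN2AIPNL lay between -0.22 and 0.25 with either siRNA.

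Both 6 h arrays lay above all 4 earlier arrays for 15 of 53 members, against 22.4% of all features, and below them for 6 of 53, against 19.1%. For 8 members the 6 h arrays were above control and the earlier arrays below it (7.97% of all features), and for 2 the reverse held (4.91% of all features). From complete probes these counts were 7 and 1, without CDC25B and CDKN2A. The slope over time, fitted with both siRNAs in the model, had an unadjusted p under 0.05 upward for 8 of 56 members (12.1% of all features) and downward for 3 (7% of all features). These shares are near those of all features. The upward slopes were those of CDKN1A at 0.18 per hour (SE 0.03, n = 6; adjusted p = 0.189 in limma), CDK6 at 0.25 (SE 0.06), CCND3 at 0.13, CDK4 at 0.13, CCNE1 at 0.12, CDK10 at 0.11, CDK11A at 0.09 and CDKAL1 at 0.20 (0.04 without the RPS3 siRNA array at 6 h, its 1 value at that time). The downward slopes were those of CDK2AP1, which encodes a CDK2-associated protein, at -0.12 per hour, CDKN3 at -0.10 and CDK17 at -0.10. No slope passed after adjustment. The mean of CDK6 was -0.40 over the 4 earlier arrays and 0.80 over the 6 h arrays.

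The time course rested on the 6 h arrays. Without both of them 0 members had a slope with an unadjusted p under 0.05 (0.837% of all features), and CCND3, CCNE1 and CDK4 had slopes of -0.0035, -5e-04 and -0.0026 per hour. Without the p65 siRNA array at 1 h, CDK6 passed, alone among the members (adjusted p = 0.0484 in limma, slope 0.28), and 488 of 8021 features did. Without the p65 siRNA array at 6 h 5 members had an unadjusted p under 0.05 (7.3% of all features), and without the RPS3 siRNA array at 6 h 3 did (3.98% of all features). Of the 6 CDK6 probes, 4 had values on all arrays and were higher at 6 h, by 0.83 to 1.81, another with 5 values differed by -0.87, and 1 was blank on both 6 h arrays. Values of other genes moved with time as well: the median of the 11 tested of 15 T cell markers was 0.33 and 0.56 on the 6 h arrays and between -0.21 and -0.0025 on the earlier arrays. Blank values were most frequent there too, at 14.8% and 15.1%, against 5.4% to 10.1% on the earlier arrays. Whether either bears on the 6 h values of the members was not tested.

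**Figure D4:**
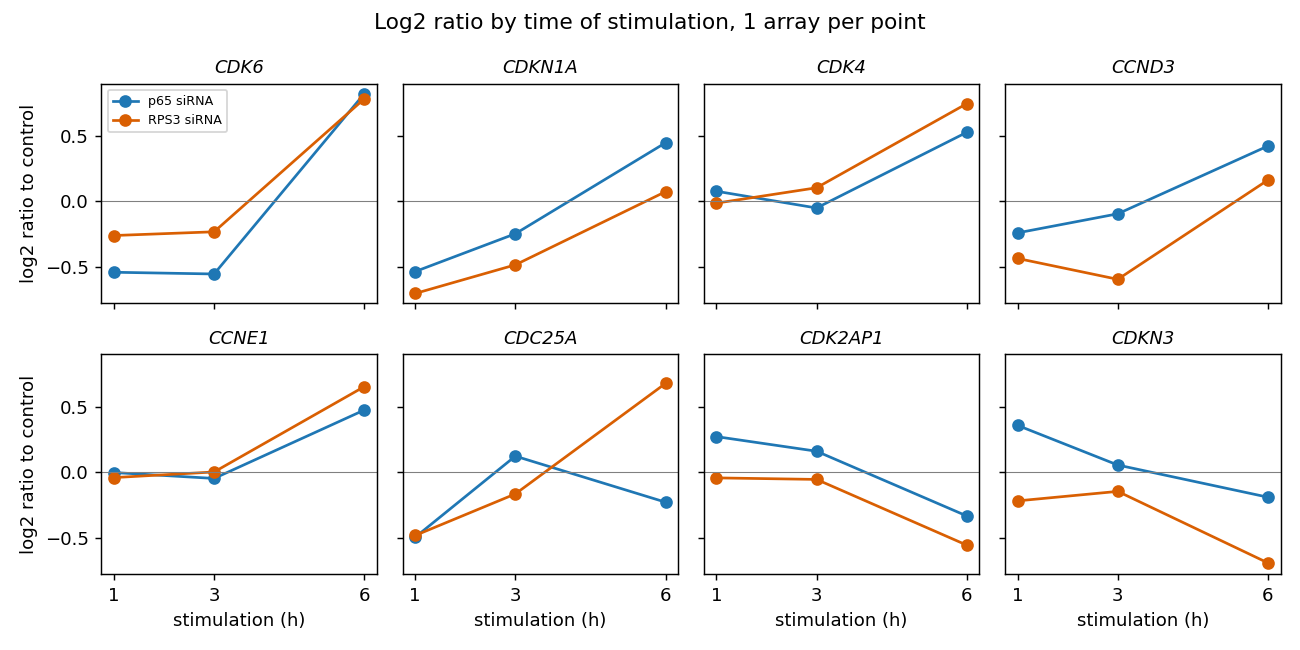
Log2 ratio over control (vertical axis) at 1, 3 and 6 h of stimulation (horizontal axis) for 8 members, with 1 array per point, blue for p65 siRNA and orange for RPS3 siRNA. CDK6, CDKN1A, CDK4, CCND3 and CCNE1 are highest at 6 h with both siRNAs, CDK2AP1 and CDKN3 are lowest there, and CDC25A is high at 6 h with RPS3 siRNA alone.

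Genes that work with these members were taken from a separate list of 32, of which 22 were tested. None passed in any contrast (0 of 22). With RPS3 siRNA, 1 was higher and 2 were lower at an unadjusted p under 0.05 (all features: 3.73% and 3.98%), and with p65 siRNA 0 in either direction (2.65% and 2.41%). CKS2, a small subunit bound to CDKs, read -0.20, -0.28 and -0.66 with RPS3 siRNA and 0.38, 0.12 and -0.09 with p65 siRNA, without overlap (difference -0.51, unadjusted p = 0.0345, adjusted p = 1.00 in limma). SKP2, the ubiquitin ligase subunit that targets p27, read -0.20, -0.49 and -0.41 with RPS3 siRNA and 0.18, -0.19 and 0.12 with p65 siRNA. MYC, a transcription factor that drives growth, read 0.27, 0.65 and 0.24 with RPS3 siRNA and 0.43, -0.13 and -0.05 with p65 siRNA. SKP2 and CKS2 thus lay below control at each time with RPS3 siRNA, as did 6 of these 22 genes and 15% of all features. MYC lay above it, as did 2 of the 22 and 16.2% of all features. The RPS3 siRNA values lay below all p65 siRNA values for 2 of the 22, CKS2 and SKP2, and for 4.82% of all features. In the retinoblastoma family RB1 averaged -0.10 ± 0.19 with p65 siRNA and -0.06 ± 0.06 with RPS3 siRNA, and RBL1 0.12 ± 0.05 and 0.08 ± 0.20. RBL2, the pocket protein p130, averaged -0.32 ± 0.39 and -0.25 ± 0.23. In the slope 4 partners were upward and 3 downward at an unadjusted p under 0.05 (all features: 12.1% and 7%). MYBL2, a factor that helps switch on G2 genes, read 0.69 and 0.42 at 6 h, with earlier values between -0.38 and -0.01. BTRC, a ubiquitin ligase subunit, read 0.71 and 0.80 at 6 h, with earlier values between -0.13 and 0.05. FOXM1, a factor of the same G2 programme, read 0.15 and 0.03 at 6 h, with earlier values between -0.76 and -0.09. MDM2, the ligase of p53, had an upward slope of 0.10 per hour and CKS1B, the relative of CKS2, a downward one of -0.09.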

How the data were processed

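Gene expression was measured on 6 two-colour arrays, with siRNA-treated cells in Cy5 and control siRNA cells in Cy3 per the labels. The authors deposited 1 log ratio per probe and array, read here as log2 values; background correction, normalization and the rule behind blanks are not given in the sources used here. After median-centring of every array, the probes that share a symbol were averaged (15246 probes, 10169 with 1 symbol, 4 with several, 5073 with none listed; 0 symbols changed on matching to current gene records). Of the 56 members, 45 had 2 or more probes and 19 had a blank in a probe. The lowest correlation between 2 arrays was -0.22.

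Features with values on at least 2 of 3 arrays of each siRNA entered 1 fit of 8797 features (limma 3.58.1, R 4.3.3, functions lmFit and eBayes). A p of under 0.05 after Benjamini-Hochberg adjustment over all of them counted as passing. The times of a siRNA stand as its replicates, and the labels do not tell separate cultures apart, so the p-values cover spread between arrays that may be technical. A ratio tested against 0 leaves out the spread of the control. Precision is limited by having 6 arrays. The fit was tested on simulated data. Genes named are the tested members of 4 lists (G1 and S entry, G2 and M, CDK inhibitors, repressor E2Fs) and others with an unadjusted p under 0.05 and 1 sign on all arrays of a siRNA or, for the difference and the slope, at all times; CDK10 and CDK17, the anaphase-promoting complex genes, and the remaining genes named were chosen after their values were seen. The members and lists were chosen with earlier results of these data known. Promoter sequences are RefSeq's, and 1 window is not reported here.

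Alternatives were the deposited centring, quantile normalization, other rules for blanks and probes, the time point as a block, the ID series in the titles as a covariate, no 6 h arrays, and leaving out each array.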

Additional observations from a re-analysis of the deposited data

Results flagged for a closer look

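For 10 members both 6 h arrays lay on one side of the control and all 4 earlier arrays on the other; this difference was not tested. The mean of the 6 h arrays minus that of the 1 and 3 h arrays was 1.20 for CDK6, 0.75 for CDKN1A, 0.64 for CCND3, 0.51 for CDC27, 0.37 for CDC37, 0.35 for CDKN2AIPNL, 0.30 for CDC25B and 0.22 for CDK2. It was -0.39 for CCNG1 and -0.35 for CDKN2A. Above control at 6 h and below it earlier were 8 of 53 members, against 7.97% of all features, and the reverse held for 2, against 4.91%. For CDC25B and CDKN2A the pattern rests on probes that were blank on some arrays: from probes with a value on all 6, chosen as a check after seeing the data, the difference was 0.11 for CDC25B and -0.31 for CDKN2A, and neither lay on opposite sides of control. The same check gave 1.46 for CDK6. Both probes of CDK2 had values on all 6 arrays but disagreed, with differences of 0.54 and -0.11, so its pattern rests on 1 probe.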

How the results depend on the processing

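The count of members that passed was 0 in each contrast under each alternative run, except for the slope, where leaving out 1 array gave 0 to 1 (CDK6, without the p65 siRNA array at 1 h). The time point as a block left 0 members passing (and 1 of all 8797 features with RPS3 siRNA and 1 in the difference), with a lowest adjusted p of 0.28 (RPS3 siRNA), and raised the members with an unadjusted p under 0.05 with RPS3 siRNA from 5 to 10, as those of all features rose from 7.71% to 13.2%; this block has no slope. The mean gap of the G1 from the G2 median was -0.08 with p65 siRNA and 0.04 with RPS3 siRNA. It was -0.107 with the median of probes for p65 siRNA and 0.0769 with complete probes only for RPS3 siRNA. Without 1 array it ran from -0.0887 to -0.076 and from 0.034 to 0.0471. These are averages over the remaining arrays of a siRNA, whose gaps all had the same sign. Their sign was thus fixed, and leaving out an array is no check of it. For the block, the covariate and single probes the mean gap has no value. Without both 6 h arrays the slope turned to -0.0035 for CCND3, -5e-04 for CCNE1 and -0.0026 for CDK4, because the later time is then absent. Among the 29 values of single genes tried under the alternatives, 375 alternative values kept direction and side of the threshold, 3 turned and 1 passed. Without the p65 siRNA array at 1 or 3 h CDK13 and CDKAL1 had too few values to be fitted. No intensity was used, so signal over background is unknown.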
